A study of Mus musculus with 8 samples.

Results

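The lipid, purine and orphan G-protein-coupled receptors are described here in mouse CD4 T cells recovered from RAG-/- hosts, with the few P2X channels that bind the same nucleotide ligands kept apart. Members were all genes of the count table whose symbol belongs to the families Gpr (with a number), P2ry, P2rx, Adora, S1pr, Lpar, Ptger, Ptgir, Adrb, Hrh, Fpr, Ltb4r, Cysltr, Ffar, Hcar or Adgr other than Adgre. The rule used names alone and found 55 of the 11354 genes, 53 receptors and 2 P2X channels (P2rx4 and P2rx7). Family members that the table does not list were not analysed here.

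G-protein-coupled receptors span the membrane as a bundle of helices and pass the binding of a ligand outside the cell to G proteins inside it. Those coupled to Gs raise cyclic AMP, those coupled to Gi lower it, and others act through Gq or through G12 and G13 on calcium and the cytoskeleton. In T cells, receptors for sphingosine 1-phosphate and oxysterols guide cells out of and within lymphoid tissue, receptors for prostaglandin E2 and adenosine dampen activation through cyclic AMP, and many receptors of this class are still without an accepted ligand.

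Poly(A) RNA was sequenced from 8 samples, 4 whose labels give the transferred cells as wild type and 4 as Nlrp6-/-, all of Black6 strain background and all from RAG-/- hosts. Such hosts lack T and B cells of their own but keep their myeloid cells. Hosts carry the numbers 1, 2, 4 and 5 under each label, so the libraries are called WT 1, WT 2, WT 4, WT 5, KO 1, KO 2, KO 4 and KO 5. The source label names the spleen of the host, but the colonic lamina propria is named in both the extraction protocol and the design text. Whether a host number stands for 1 mouse is not stated, so the p-values reflect only how these libraries vary, which may in part be technical.

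Nlrp6 itself went against the labels. Its counts were 5, 3, 3 and 8 in WT 1, WT 2, WT 4 and WT 5 and 487, 329, 477 and 648 in KO 1, KO 2, KO 4 and KO 5, so each group below is named only by its label. Total counts ranged from 35198192 to 40310721 per library. Of 16 T cell identity genes, 13 were measured, with summed levels of 9232 to 10714 CPM (counts scaled to library size) under the wild-type label and 9054 to 9512 under the knock-out label. In edgeR's quasi-likelihood test, Zap70 (-0.27 ± 0.07 as log2 fold change ± SE, adjusted p = 0.0304) and Cd247 (-0.40 ± 0.11, adjusted p = 0.0444) were called lower where the label is knock-out, but neither was called without WT 1, WT 2, KO 1, KO 2 or KO 5. Markers of other cells moved with the labels too. Of 20 myeloid markers, 17 were called higher in the libraries labelled knock-out, by 8.60- to 18.1-fold as fold changes of the fit. Not called were Cd68 (log2 fold change 0.61), Ccr2 (0.09) and Cx3cr1 (-0.08). Among the 17, Fcgr1 (the 18.1-fold) and Spi1 were under 1 CPM in every library labelled wild type. They are in the table only through the knock-out label and had to differ. The summed level of the 20 was 438 to 579 CPM under the wild-type label against 763, 1039, 1626 and 1283 CPM in KO 1, KO 2, KO 4 and KO 5. Much of that sum was Ccr2, a chemokine receptor that was not called and was at 372 to 488 against 412 to 515 CPM. Without Ccr2 the sums were 65.6 to 115 CPM against 351, 618, 1111 and 805 CPM. The dendritic and MHC class II list had 6 of 8 measured markers called higher (65.0 to 113 against 470 to 1356 CPM summed). Its markers Itgax (0.45 ± 0.29, adjusted p = 0.405) and Zbtb46 (0.10 ± 0.19, adjusted p = 0.833) were not called. The neutrophil list had 5 of 6 called higher (8.79 to 15.8 against 33.5 to 72.6 CPM summed), all but Ngp. Of those 5, Clec4d and Trem1 were also under 1 CPM in every library labelled wild type and had to differ. Listed but not analysed here were Clec9a, Flt3 and Xcr1 of the first list and Cxcr2, Elane, Ly6g, Mpo and Retnlg of the second. Of 5 epithelial, 9 stromal or endothelial and 5 natural killer or innate lymphoid markers, edgeR called 0, with 1, 4 and 1 at an unadjusted p below 0.05, DESeq2 called 0, 1 and 1 of them and limma-voom 0, 1 and 0. In bulk RNA, fewer cells of a type and less RNA per cell cannot be told apart.

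Levels of the members differed widely when counts were divided by gene length (CPM per kilobase, mean ± SD over all 8 libraries, which compares levels between genes). The highest was Gpr132, a lysophospholipid- and fatty-acid-responsive receptor, at 263 ± 43.4 CPM per kilobase. Its lowest library, at 214, lay above the highest library of any other member, P2ry10 at 152. Next came P2ry10, a lysophosphatidylserine receptor, at 124 ± 20.0, Gpr18 at 101 ± 20.0, Gpr171 at 94.5 ± 10.2, the ATP-gated channel P2rx7 at 82.3 ± 11.0 and the prostaglandin E2 receptor Ptger4 at 73.3 ± 4.39. From P2ry10 to Ptger4 each member's range over the libraries overlapped that of the next, so their order was not resolved beyond the spread. Gpr183 (63.5 ± 15.2), S1pr4 (59.9 ± 3.04) and Gpr65 (55.6 ± 6.28) followed, again with overlapping ranges. At the low end were Adgrl4 (0.274), Adgrd1 (0.280), Adgrf5 (0.387), Gpr162 (0.403) and Ptgir (0.476).

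**Figure D1:**
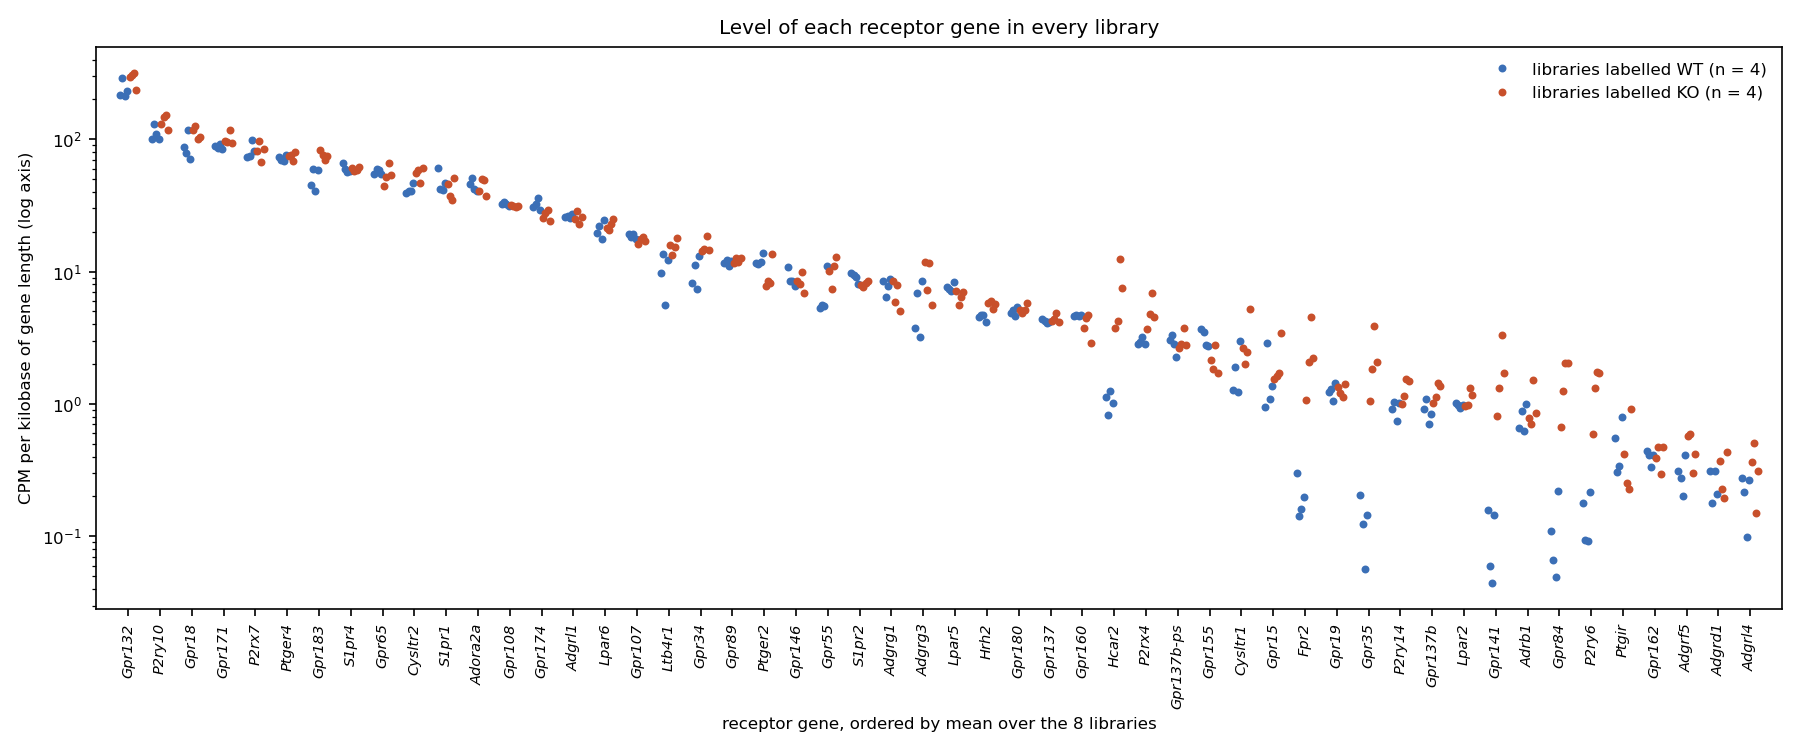
Level of 52 members in each of the 8 libraries, in CPM per kilobase of gene length on a log axis, with the 2 labels in different colours. Gpr132 stands highest at a mean of 263, and the points of the 2 labels separate most for Gpr141, Gpr35, Gpr84, Fpr2, P2ry6 and Hcar2 among the low members.

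Between the labels, 12 members were called higher and 1 lower under the knock-out label (edgeR's quasi-likelihood test, Benjamini-Hochberg adjusted p below 0.05 over all 11354 genes), and 42 were not called. Over all genes, 6.20% were called higher and 3.84% lower. Called and at least 2-fold higher were 7 members, where 3.35% of all genes were. Without the 2 P2X channels the counts were 11 and 1 of 53. The median log2 fold change (knock-out label over wild-type label throughout) was 0.18 over the members and -0.00 over all genes. Values of the 2 labels did not overlap for 13 members, 12 of them higher and 1 lower under the knock-out label, against 16.0% of all genes (8.60% higher and 7.37% lower). The counts cannot be read as a shift of the family. Rows of low count had been left out of the table before, and Fpr2, P2ry6, Gpr141, Gpr35 and Gpr84 were under 1 CPM in every library labelled wild type and at or above 1 CPM in every library labelled knock-out. Those 5 members are in the table only through the knock-out label and had to differ. Among the other 50 members, 7 were called higher (14%), against 4.95% of the 11202 genes left when the 152 genes of the same pattern are set aside. Without WT 1, 7 members were called higher, and with only genes of at least 5 CPM in 4 libraries, 6 of 40 were. Of the 55 members, 23 had a log2 fold change within 0.2 of zero.

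**Figure D2:**
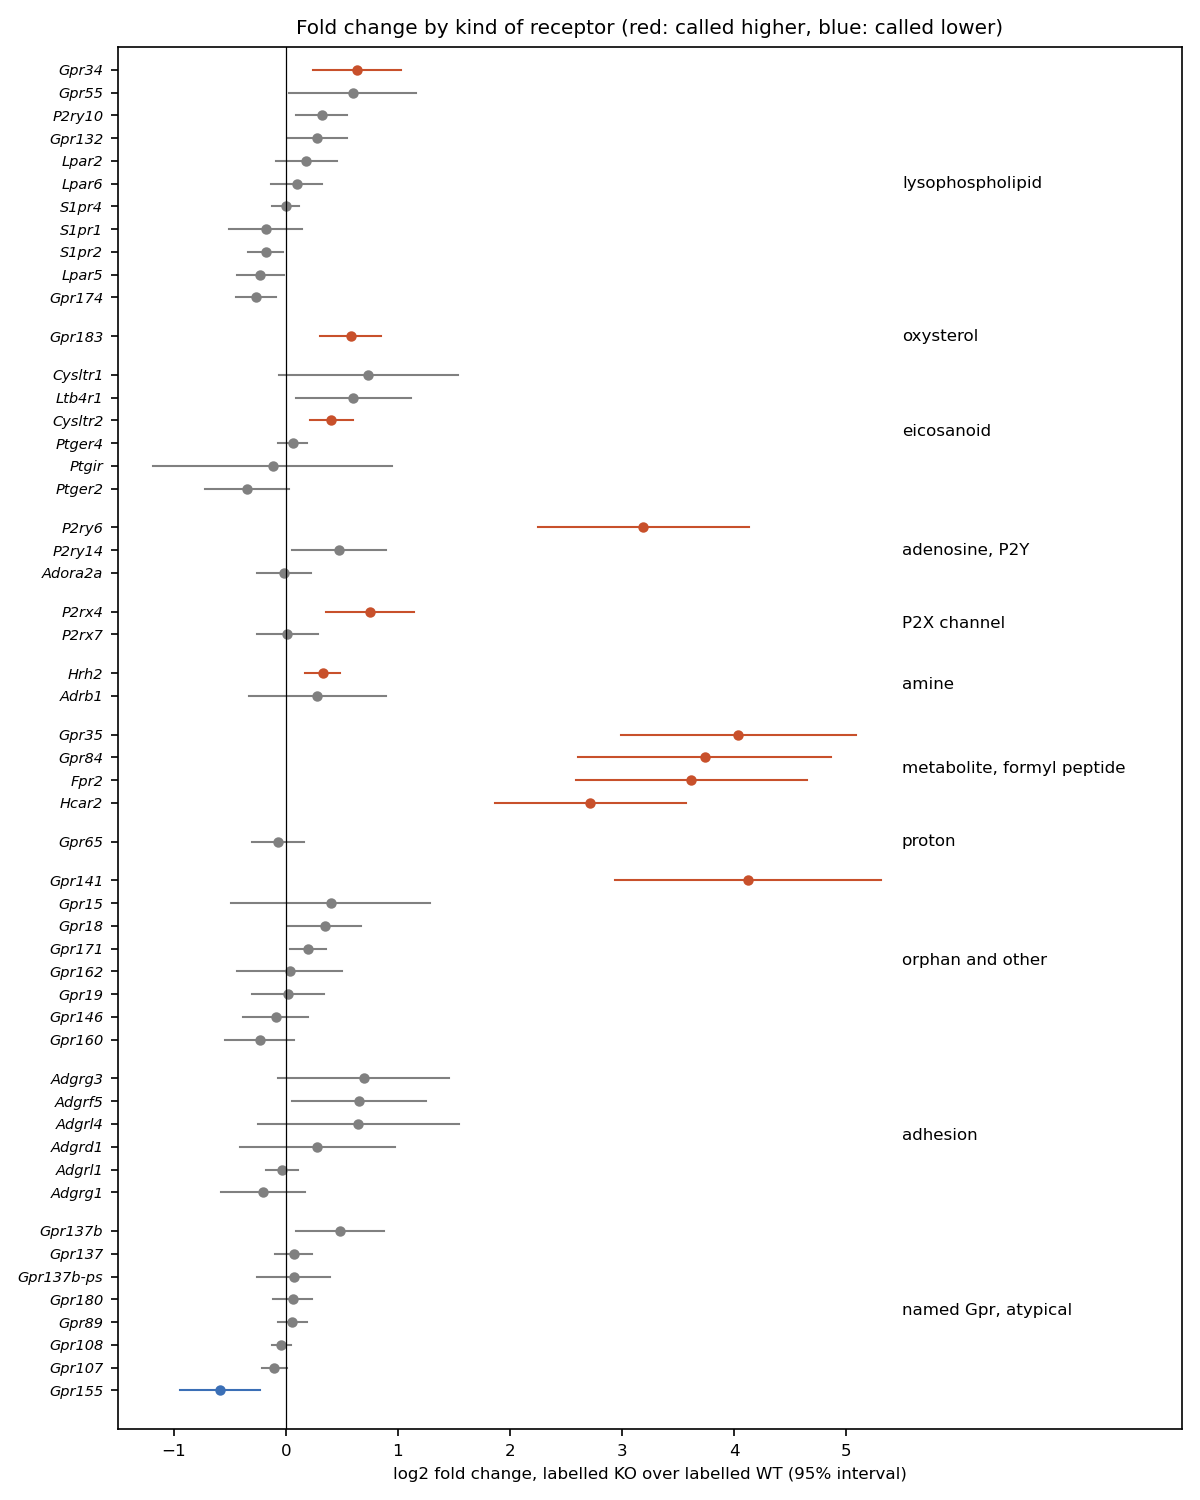
Log2 fold change of 52 members, knock-out label over wild-type label, grouped by role, with bars for the 95% interval of the fit, red for members called higher, blue for the member called lower and grey for the others. The 6 members at the far right, from Hcar2 at 2.72 to Gpr141 at 4.13, lie apart from the others shown, none of which exceeds 0.75.

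The receptors for metabolites and formyl peptides in the table were Gpr35, Gpr84, Fpr2 and Hcar2, all at low levels under the wild-type label. Each was called higher under the knock-out label, but Gpr35, Gpr84 and Fpr2 are among the members that had to differ, so their calls are a description, and only Hcar2 was above 1 CPM in every library. Gpr35, which responds to kynurenic acid and other tryptophan metabolites, was at 0.930, 0.560, 0.253 and 0.653 CPM in WT 1, WT 2, WT 4 and WT 5 and at 4.71, 8.25, 17.5 and 9.33 CPM in KO 1, KO 2, KO 4 and KO 5 (log2 fold change 4.04 ± 0.47, adjusted p = 0.000592). Even the lowest library labelled knock-out was above the highest labelled wild type, and KO 4 was highest of all. Gpr84, a receptor for medium-chain fatty acids, was at 0.171, 0.102, 0.0759 and 0.339 CPM against 1.03, 1.94, 3.17 and 3.18 CPM in the same order (3.74 ± 0.50, adjusted p = 0.00134). These levels rest on few reads, 7, 4, 3 and 13 under the wild-type label and 40, 76, 108 and 126 under the knock-out label. The labels did not overlap, and KO 4 and KO 5 were nearly equal at the top. Fpr2, a formyl peptide receptor through which phagocytes sense bacterial and host peptides, was at 0.759, 0.357, 0.405 and 0.496 CPM against 2.72, 5.25, 11.5 and 5.62 CPM (3.62 ± 0.46, adjusted p = 0.000976). Reads from near-identical Fpr genes may be split between copies, so its level is uncertain. Hcar2, the receptor for niacin, butyrate and beta-hydroxybutyrate, was at 2.20, 1.61, 2.45 and 1.98 CPM against 7.30, 8.28, 24.2 and 14.6 CPM (2.72 ± 0.38, adjusted p = 0.00163). Again the groups were apart, and KO 4 and KO 5 were the highest libraries.

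Gpr141 and P2ry6, the other members in the table only through the knock-out label, had values of the same kind. Gpr141, an orphan receptor, had the largest log2 fold change of the 55, with 0.539, 0.204, 0.152 and 0.496 CPM in WT 1, WT 2, WT 4 and WT 5 against 2.79, 4.56, 11.3 and 5.90 CPM in KO 1, KO 2, KO 4 and KO 5 (4.13 ± 0.53, adjusted p = 0.00100). P2ry6, a receptor for the nucleotide UDP, was at 0.343, 0.178, 0.177 and 0.418 CPM against 1.14, 2.55, 3.34 and 3.28 CPM (3.19 ± 0.42, adjusted p = 0.00116). For both genes the groups did not overlap and KO 1 was the lowest library of its label. As fold changes of the fit, the rises of these 6 members ran from 6.57-fold for Hcar2 to 17.5-fold for Gpr141. Hcar2 was called in all 8 fits that left out 1 library, and also without both KO 4 and KO 5.

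**Figure D3:**
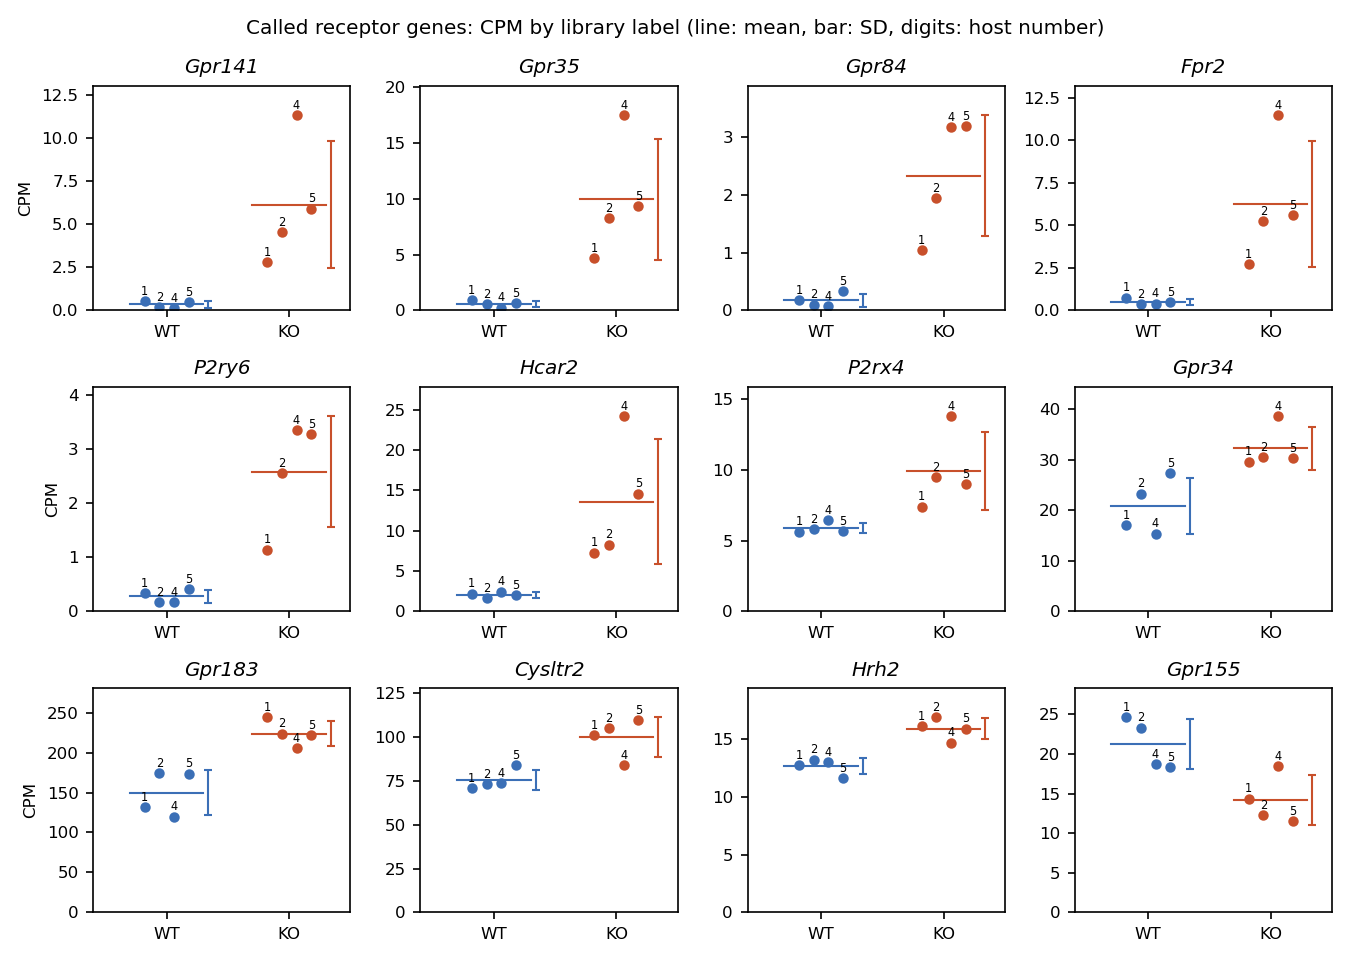
CPM of 12 called members in each library, with the mean as a line, the SD over 4 libraries as a bar and each point marked by its host number. In Gpr35, Fpr2, Gpr141 and Hcar2 the point of host 4 is the highest under the knock-out label, whereas in Gpr183, Cysltr2 and Hrh2 it is the lowest of that label.

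Within the knock-out label, the myeloid sum rose in the order KO 1, KO 2, KO 5, KO 4, and 5 of the 13 called members took the same order (P2ry6, Hcar2, Gpr35, Gpr141 and Fpr2). All of these but Hcar2 are in the table only through the knock-out label. The share of all genes with this order was not counted. The order of the myeloid sum was the same without Ccr2. From KO 1 to KO 4 the myeloid sum differed 2.13-fold, or 3.16-fold without Ccr2, and the 17 called myeloid markers differed 2.40- to 4.76-fold. Over the same step Fpr2 differed 4.22-fold, Gpr141 4.05-fold, Gpr35 3.71-fold, Hcar2 3.32-fold, Gpr84 3.06-fold and P2ry6 2.94-fold. P2rx4 (1.86), Gpr34 (1.30) and Gpr155 (1.29) were also higher in KO 4 than in KO 1. The ratio was below 1 for Hrh2 (0.911), Gpr183 (0.841) and Cysltr2 (0.831). The part of myeloid RNA in any of these differences was not tested. KO 1 and KO 2 carry library code 7 in their sample descriptions, and KO 4 and KO 5 carry code 8. Myeloid level and that code cannot be told apart over the step from KO 1 to KO 4.

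**Figure D4:**
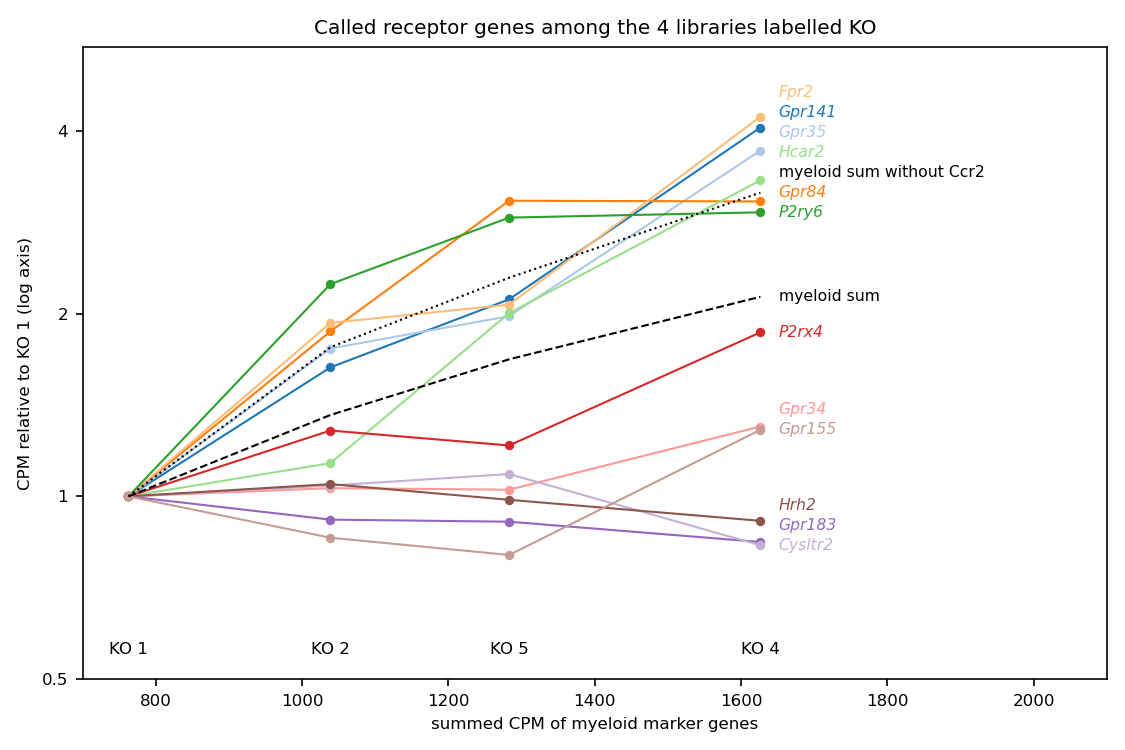
The 12 called members described in the text, in the 4 libraries labelled knock-out, as CPM relative to KO 1, against the summed CPM of the 20 myeloid markers, with the myeloid sum itself as a dashed line and the sum without Ccr2 as a dotted line. The dotted line reaches 3.16 and Fpr2 4.22 in KO 4, the library with the highest myeloid sum (1626 CPM), where Cysltr2 is at 0.831.

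Adhesion receptors join a long extracellular domain to the membrane helices. Adgrg1 (Gpr56), which marks cytotoxic lymphocytes, was at 32.9, 25.1, 30.2 and 34.1 CPM in WT 1, WT 2, WT 4 and WT 5 and at 32.9, 22.8, 30.8 and 19.4 CPM in KO 1, KO 2, KO 4 and KO 5 (-0.21 ± 0.17, adjusted p = 0.523). Adgrg3 (Gpr97), 2.91 kb from it on chromosome 8, was at 15.6 ± 7.07 against 25.2 ± 8.75 CPM (0.69 ± 0.34, adjusted p = 0.264). Groups overlapped for both genes. Adgrl1 was level at -0.03 ± 0.06, and Adgrd1 (0.28), Adgrl4 (0.65) and Adgrf5 (0.65, adjusted p = 0.175) were below 6 CPM in every library.

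Of the sequences that precede the start sites, 4 stretches of 200 bases are shown, those of 2 members that rose (Gpr35 and Fpr2) and of 2 receptors high in every library (P2ry10 and Gpr18). They come from RefSeq's GRCm38.p6, read 5′ to 3′ on the gene's strand, end at the base before a start site and hold no annotated exon. Capitals mark matches to GAGGAA or its reverse complement (the core bound by PU.1, a factor of myeloid cells, and by other ETS factors), to TTGCNNAA (C/EBP) or to TGTGGTT (RUNX), each searched on both strands.
Gpr35: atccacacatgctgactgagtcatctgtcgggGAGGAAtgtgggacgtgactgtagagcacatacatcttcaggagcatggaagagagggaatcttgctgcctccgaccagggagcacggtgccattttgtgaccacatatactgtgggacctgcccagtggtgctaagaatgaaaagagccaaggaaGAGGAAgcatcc
Fpr2: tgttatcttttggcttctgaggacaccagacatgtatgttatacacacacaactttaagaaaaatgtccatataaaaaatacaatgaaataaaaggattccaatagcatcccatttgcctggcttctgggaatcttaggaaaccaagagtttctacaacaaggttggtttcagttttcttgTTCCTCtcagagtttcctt
P2ry10: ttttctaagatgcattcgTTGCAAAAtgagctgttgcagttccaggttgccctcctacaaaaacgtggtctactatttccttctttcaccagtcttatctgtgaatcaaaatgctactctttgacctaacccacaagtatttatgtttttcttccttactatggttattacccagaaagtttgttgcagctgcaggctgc
Gpr18: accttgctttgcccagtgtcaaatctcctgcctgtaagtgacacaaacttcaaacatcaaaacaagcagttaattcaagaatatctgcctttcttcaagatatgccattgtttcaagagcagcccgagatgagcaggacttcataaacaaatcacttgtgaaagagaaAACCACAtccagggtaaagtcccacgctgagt

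The stretches are chr1:92978703-92978902 on the plus strand for Gpr35, chr17:17887624-17887823 on the plus strand for Fpr2, chrX:107088292-107088491 on the plus strand for P2ry10 and chr14:121915889-121916088 on the minus strand for Gpr18. The stretch shown for Gpr35 belongs to its downstream start and holds 2 matches to GAGGAA, whereas the 200 bases before its upstream start (chr1:92972919-92973118) hold no match to any of the motifs. Fpr2 has 1 match to GAGGAA. The 200 bases before the start of Cysltr2 (chr14:73049115-73049314), also called higher, are not printed and hold no match to any of the motifs. P2ry10 has 1 match to TTGCNNAA in the stretch shown and a match to GAGGAAGT in the window of another start, and Gpr18 has 1 to TGTGGTT. A RefSeq window of 300 bases, 250 before the start and 50 after it, was matched for 42 of the 55 members, with 60 windows in all. GAGGAA was in 28 of those 60 windows, against 9289 of all 32851 windows of this length (28.3%). GAGGAAGT, which contains it, was in 7 of 60, against 1052 of 32851 (3.20%). TTGCNNAA was in 6 of 60, against 3547 of 32851 (10.8%), and TGTGGTT in 4 of 60, against 1731 of 32851 (5.27%). For GAGGAA and GAGGAAGT the members' share was the larger, a difference that was not tested. Among members called higher that had a window, Fpr2, Gpr35 and Hrh2 held GAGGAA, and Gpr141, Gpr84, Gpr183, Cysltr2 and P2rx4 did not. Members that were not called held it as well, among them P2rx7, Gpr65 and Gpr174. TGTGGTT was in windows of Gpr132, Gpr15, Gpr18 and P2ry10. A match describes these letters only and is no evidence of binding.

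Gpr183, also called EBI2, guides lymphocytes and dendritic cells along gradients of oxysterols, and it rose. Its level was 132, 174, 119.8 and 174 CPM in WT 1, WT 2, WT 4 and WT 5 and 244, 224, 205 and 222 CPM in KO 1, KO 2, KO 4 and KO 5. Means were 149.9 ± 28.1 and 224 ± 15.9 CPM, a log2 fold change of 0.58 ± 0.12 with a 95% interval of 0.31 to 0.85 and an adjusted p of 0.0143. All 4 libraries labelled knock-out were above all 4 labelled wild type, and KO 1, with the lowest myeloid sum of its label, was the highest. Without WT 1 the adjusted p was 0.0520. Gpr183 lies inside the gene Ubac2 on chromosome 14, as does Gpr18 at 36.4 kb from it. How strand was treated in counting is not stated, so reads of overlapping genes cannot be told apart. Ubac2 was at 0.07 ± 0.09 (adjusted p = 0.732). Of the 4 genes listed for making and clearing the ligand, 2 were measured. Cyp27a1, which hydroxylates cholesterol, was at 0.0630 against 1.77 CPM and is in the table only through the knock-out label, so its call had to follow, and Hsd3b7, which inactivates the ligand, was at 18.4 against 21.3 CPM (0.21 ± 0.06, adjusted p = 0.0707).

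The lysophospholipid receptors, 11 members, had 1 called higher, Gpr34, where 6.20% of all genes were called higher. The sphingosine 1-phosphate receptor S1pr1, which lets T cells leave lymphoid tissue, was at 182, 129, 126 and 141 CPM in WT 1, WT 2, WT 4 and WT 5 and at 138, 114, 105 and 153 CPM in KO 1, KO 2, KO 4 and KO 5. The groups overlapped, with WT 1 highest and KO 4 lowest, and the log2 fold change of -0.18 ± 0.14 had a 95% interval of -0.51 to 0.15 (adjusted p = 0.525). S1pr4, a lymphocyte receptor for the same lipid, varied little, at 158, 142, 135 and 139 CPM against 145, 138, 141 and 148 CPM. Its log2 fold change of -0.00 ± 0.05 was bounded by -0.12 and 0.12. S1pr2, which opposes migration, was at 25.7 ± 2.05 against 22.7 ± 1.05 CPM (-0.18 ± 0.07, adjusted p = 0.140), and was called lower without WT 5 (adjusted p = 0.0435). Of 7 genes known to act on S1pr1, 1 was called higher, where 6.20% of all genes were. Cd69, which pulls S1pr1 off the cell surface, was at 731 ± 73.4 against 907 ± 81.9 CPM (0.31 ± 0.09, adjusted p = 0.0490), a call that was lost without WT 1, WT 2, WT 4, KO 1, KO 4 or KO 5 (adjusted p = 0.130 without KO 1) and with total library sizes (0.0600). The regulator Foxo1 (0.23 ± 0.08, adjusted p = 0.108) and the S1pr1 activator Klf2 (0.14 ± 0.15, adjusted p = 0.636) were not called.

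Of the 3 receptors for lysophosphatidylserine, Gpr34 passed the test, and P2ry10 and Gpr174 had values of opposite sign. Gpr34, a receptor known from microglia and innate cells, was at 17.1, 23.3, 15.4 and 27.3 CPM against 29.6, 30.5, 38.5 and 30.3 CPM, in the order of libraries used above (0.63 ± 0.17, adjusted p = 0.0498). The groups did not overlap, but of the 8 fits on 7 libraries only the one without WT 5 called it, and the adjusted p reached 0.135 without WT 1. Gpr34 lies inside Cask, which was at 0.10 ± 0.20 (adjusted p = 0.830). P2ry10 was at 299, 386, 324 and 301 CPM against 390.1, 442, 453 and 351 CPM (0.32 ± 0.10, 95% interval 0.09 to 0.55, adjusted p = 0.0860), and WT 2 reached above KO 5. It was called higher without WT 2 (adjusted p = 0.0275) or KO 5 (0.0420) and by DESeq2 (0.0202). Gpr174, a receptor that restrains T cell activation through cyclic AMP, lay the other way, at 165, 174, 196 and 159 CPM against 137, 149.5, 159 and 130.3 CPM (-0.27 ± 0.08, adjusted p = 0.0661). KO 4 came up to WT 5. Without KO 4, Gpr174 was called lower (adjusted p = 0.0303), and with all libraries it was called by DESeq2 (0.0160), by limma-voom (0.0274) and by edgeR with total library sizes (0.0362). P2ry10 and Gpr174 are 151 kb apart on chromosome X.

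Gpr132 was at 527, 705, 522 and 565 CPM in WT 1, WT 2, WT 4 and WT 5 and at 721, 746, 779 and 571 CPM in KO 1, KO 2, KO 4 and KO 5. WT 2 came close to KO 1, KO 2 and KO 4, KO 5 lay within the range of the wild-type label, and the log2 fold change was 0.28 ± 0.12 (adjusted p = 0.189). Gpr55, a lysophosphatidylinositol receptor, had WT 5 at 28.0 CPM beside 13.6 to 14.2 CPM in the other libraries of that label, and lay between 19.0 and 32.6 CPM in the libraries with the other label (0.59 ± 0.25, adjusted p = 0.190). Without WT 5 it was called higher, at 0.92 (adjusted p = 0.00910). The lysophosphatidic acid receptors were at 0.18 for Lpar2, 0.10 for Lpar6 and -0.23 ± 0.09 for Lpar5 (adjusted p = 0.175). Lpar5, at 10.8 to 12.6 against 8.53 to 10.7 CPM, was the only member lower under the knock-out label with no overlap. Lipid metabolism around these receptors had 17 measured genes, of which 1 was called higher and 1 lower, close to the 6.20% and 3.84% of all genes. Asah1, the acid ceramidase that releases sphingosine, was at 35.6 against 44.0 CPM (0.30 ± 0.08, adjusted p = 0.0375), and was not called without WT 1 (adjusted p = 0.0939), WT 2, WT 4, WT 5, KO 2 or KO 5. The neutral ceramidase Asah2 fell by 0.84 ± 0.18 on the log2 scale (6.33 to 3.52 CPM, adjusted p = 0.0159), with a call lost without WT 1 (adjusted p = 0.0565). The transporter Spns2 (0.90 ± 0.33, adjusted p = 0.136) and Acer2 (0.39 ± 0.17, adjusted p = 0.204) did not pass.

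For the eicosanoid receptors, 1 of 6 was called higher, where 6.20% of all genes were. Cysltr2, a receptor for cysteinyl leukotrienes, was at 70.8, 73.2, 73.6 and 83.8 CPM in WT 1, WT 2, WT 4 and WT 5 and at 101, 105, 83.7 and 109.7 CPM in KO 1, KO 2, KO 4 and KO 5 (0.41 ± 0.09, adjusted p = 0.0155). Only KO 4 fell within the range of the wild-type label, just under WT 5. The call was lost without WT 1 (adjusted p = 0.0621), WT 2 or WT 4. Ptger4, the Gs-coupled prostaglandin E2 receptor EP4, was at 243, 231, 226 and 255 CPM against 247, 252, 229 and 268 CPM, with a log2 fold change of 0.06 ± 0.06 bounded by -0.07 and 0.19. Ptger2, the EP2 receptor for the same ligand, was at 43.5, 42.8, 44.2 and 52.2 CPM against 29.5, 32.2, 30.8 and 51.2 CPM (-0.35 ± 0.17, adjusted p = 0.253). KO 1, KO 2 and KO 4 were low, while KO 5 was as high as WT 5. Without KO 5, Ptger2 was called lower, at -0.57 (adjusted p = 0.00364). Of the others, Ltb4r1 for leukotriene B4 was at 0.60 ± 0.23 (adjusted p = 0.144), Cysltr1 at 0.74 ± 0.36 (adjusted p = 0.255) and the prostacyclin receptor Ptgir at -0.12 ± 0.48.

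A list of genes that make or move eicosanoids had 5 of 12 measured genes called higher, where 6.20% of all genes were. It includes transporters, and no receptor for thromboxane or prostaglandin D2 is among the 6 members. One of the 5, Tbxas1, is in the table only through the knock-out label (0.343 CPM at most under the wild-type label) and had to differ. edgeR called 0 of the 12 lower, with 0 lower at an unadjusted p below 0.05 and 0 lower by DESeq2 or limma-voom. Ptgs2, the inducible cyclooxygenase, was at 6.12 ± 1.48 against 85.1 ± 48.0 CPM (3.79 ± 0.42, adjusted p = 0.000512). Alox5ap, which presents arachidonate to 5-lipoxygenase (3.36 ± 0.47, adjusted p = 0.00155), and the prostaglandin D2 synthase Hpgds (1.39 ± 0.26, adjusted p = 0.00767) rose too, from means of 0.899 and 1.11 CPM. Hpgds was not called without both KO 4 and KO 5 (adjusted p = 0.0571). Thromboxane synthase Tbxas1 was at 0.246 against 4.15 CPM. The fifth was Ptgs1, the constitutive cyclooxygenase, which the rule for named genes leaves out and which was named after its value was seen (1.17, adjusted p = 0.0468), and which was called in only 1 of the fits on 7 libraries, the one without KO 1. Leukotriene A4 hydrolase Lta4h (-0.03 ± 0.07, adjusted p = 0.833) was not called. Nor were the prostaglandin E synthases Ptges2 (-0.05 ± 0.11, adjusted p = 0.856) and Ptges3 (0.09 ± 0.08, adjusted p = 0.545). These 3 were also named after their values were seen. The myeloid, dendritic and neutrophil sums given above were higher under the same label, and their part was not tested.

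In the purine group, Adora2a, the adenosine receptor that restrains T cells through cyclic AMP, was at 120.1, 133, 109 and 106 CPM in WT 1, WT 2, WT 4 and WT 5 and at 106, 130.2, 129 and 96.8 CPM in KO 1, KO 2, KO 4 and KO 5. The groups covered nearly the same range, with a log2 fold change of -0.02 ± 0.11 and a 95% interval of -0.26 to 0.22. P2ry14, a receptor for UDP-glucose, was at 2.39 ± 0.352 against 3.32 ± 0.683 CPM (0.47 ± 0.19, adjusted p = 0.163), and P2ry6 rose as given above. Of the P2X channels, P2rx7, which opens to high extracellular ATP, was at 403, 413, 542 and 449 CPM against 450.0, 536, 371 and 467 CPM. KO 4 was the lowest and WT 4 the highest of the 8 libraries, and the log2 fold change was 0.01 ± 0.12 (95% interval -0.26 to 0.29, adjusted p = 0.972). P2rx4, a channel that opens at lower ATP and lies 15.2 kb from P2rx7 on chromosome 5, was at 5.63, 5.83, 6.43 and 5.66 CPM against 7.40, 9.50, 13.8 and 8.98 CPM (0.75 ± 0.17, adjusted p = 0.0244). The groups did not overlap, and KO 4 was the highest. The call was lost without WT 1 (adjusted p = 0.0689), WT 2, WT 5 or KO 2 and without both KO 4 and KO 5 (adjusted p = 0.0572). P2rx4 overlaps Camkk2, which was at 0.10 ± 0.09 (adjusted p = 0.571). Of 16 genes that handle extracellular purines and NAD, 2 were called higher (6.20% over all genes). The NAD-consuming enzyme Bst1 (CD157) was at 1.82 against 7.06 CPM (1.95 ± 0.24, adjusted p = 0.000798), and Nt5e (CD73), which makes adenosine, at 73.2 ± 5.09 against 90.8 ± 8.18 CPM (0.31 ± 0.07, adjusted p = 0.0238). Nt5e was not called without WT 1 (adjusted p = 0.0832), WT 2, WT 4 or KO 2.

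Among the amine receptors, Hrh2, the Gs-coupled histamine receptor, rose by a small and even step. It was at 12.8, 13.2, 13.0 and 11.6 CPM against 16.1, 16.9, 14.7 and 15.9 CPM (0.33 ± 0.07, adjusted p = 0.0163), with no overlap and with KO 4 lowest under its label. The call was lost without WT 1 (adjusted p = 0.0504) or KO 2 (0.0540). The beta-adrenergic receptor Adrb1 was not called, at 1.98 ± 0.449 against 2.41 ± 0.913 CPM (0.28 ± 0.27). Gpr65, a proton sensor linked to colitis by its human gene, was at 117, 128, 126 and 118 CPM against 95.7, 112, 142 and 116 CPM (-0.07 ± 0.10, 95% interval -0.30 to 0.16). KO 1 and KO 4 bounded the range of all 8 libraries.

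Orphan and sparsely characterised receptors other than Gpr141 stayed below the threshold. Gpr15, which brings T cells to the colon, was low, at 1.22, 3.75, 1.42 and 1.77 CPM in WT 1, WT 2, WT 4 and WT 5 and at 1.99, 2.11, 2.23 and 4.41 CPM in KO 1, KO 2, KO 4 and KO 5. A single library stood high under each label, WT 2 and KO 5, and the log2 fold change of 0.40 ± 0.39 had a 95% interval of -0.49 to 1.29. Gpr18 was at 115, 103, 153 and 92.2 CPM against 154, 166, 132 and 137 CPM (0.35 ± 0.14, adjusted p = 0.184), and WT 4 lay among the libraries labelled knock-out. Without WT 4 it was called higher, at 0.50 (adjusted p = 0.0204). Gpr171 was at 199, 192, 206 and 187 CPM against 216, 211, 261 and 210.3 CPM (0.20 ± 0.07, adjusted p = 0.128). Its groups did not overlap, although the gap from WT 4 to KO 5 was narrow. Gpr171 and P2ry14 are 12.8 kb apart on chromosome 3, both inside Med12l, which was at 0.34 ± 0.16 (adjusted p = 0.231). Gpr160 was at -0.24 ± 0.14, Gpr146 at -0.09, Gpr162 at 0.03 and Gpr19 at 0.02.

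The last group holds 8 genes numbered as receptors. Their proteins sit in inner membranes or lack a known link to G proteins, but Gpr137b-ps is annotated as a transcribed pseudogene. Of the 8, 1 was called lower, where 3.84% of all genes were. Gpr155, a lysosomal cholesterol sensor, was at 24.6, 23.3, 18.7 and 18.3 CPM against 14.4, 12.3, 18.5 and 11.5 CPM (-0.59 ± 0.16, 95% interval -0.94 to -0.23, adjusted p = 0.0453). KO 4 lay between WT 5 and WT 4, so the groups overlapped. The adjusted p reached 0.118 without WT 1, and of the 8 fits on 7 libraries those without WT 5 or KO 4 called it. The widely expressed Gpr107 (-0.10 ± 0.05), Gpr108 (-0.04 ± 0.04), Gpr89 (0.06 ± 0.06), Gpr180 (0.06 ± 0.08) and Gpr137 (0.07 ± 0.07) had narrow errors and values near zero. Gpr137b was at 0.48 ± 0.18 (adjusted p = 0.131) and its near copy Gpr137b-ps at 0.07 ± 0.15, and reads may be split between the 2.

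Downstream of the receptors, 2 of 25 G protein subunits, receptor kinases and arrestins were called higher, a share near the 6.20% of all genes. Gng12, a gamma subunit, was at 2.06 against 4.72 CPM (1.20 ± 0.23, adjusted p = 0.00826) and the receptor kinase Grk3 at 1.64 against 5.62 CPM (1.77 ± 0.37, adjusted p = 0.0151). Grk3 was not called without WT 4 (adjusted p = 0.0502) or by limma-voom (0.0577), and neither was called without both KO 4 and KO 5. Of 22 genes of cyclic AMP signalling, edgeR called 0, with 8 at an unadjusted p below 0.05 (6 higher and 2 lower), while DESeq2 called 3 and limma-voom 1. The phosphodiesterases Pde4a (0.65 ± 0.19, adjusted p = 0.0585) and Pde4b (341 ± 57.9 against 433 ± 16.1 CPM, 0.35 ± 0.11, adjusted p = 0.0725), which break down cyclic AMP, were the nearest to the threshold. Over the 7 lists of ligand, transducer and control genes together, 12 of 100 genes were called higher and 1 lower, against 6.20% and 3.84% of all genes. The 12 include Tbxas1 and Cyp27a1, which are in the table only through the knock-out label and had to differ. With genes of that pattern set aside, 4.95% of all others were called higher, whereas the 12 of 100 still include Tbxas1 and Cyp27a1. Without WT 4, 7 list genes were called higher.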

How the data were processed

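The members and the gene lists were chosen with earlier results of these data known. The authors deposited raw read counts per gene, each row with an Entrez identifier, a symbol and a length in bases. Per the labels' protocols, stranded poly(A) libraries were sequenced from 1 end over 81 bases. STAR and mm10 are named per the submitters' processing notes. For the STAR version, the counter, its annotation and its use of strand, the entry is "not given in the sources used here". Every deposited gene had a fourth-highest CPM of at least 0.987, so low rows had been removed.

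Counts of all 11354 genes (all kept by filterByExpr) were scaled with TMM and fitted with edgeR 4.0.16 (estimateDisp, glmQLFit, glmQLFTest) on the label alone in R 4.3.3, with Benjamini-Hochberg adjustment over all genes and calls at an adjusted p below 0.05. The common biological coefficient of variation was 0.116. SE was taken as the size of the log2 fold change over the root of its F statistic. The script was tested on simulated data. Alternatives were RLE factors, total library size, no filter, 5 CPM in 4 libraries, DESeq2 1.42.0, limma-voom (limma 3.58.1), the host number as a block, the library code of the sample descriptions as a term and leaving out each library. Leaving out KO 4 and KO 5, the libraries with the highest myeloid sums, was added after the data were seen. Tables and plots used Python 3.11.15, pandas 2.3.3, numpy 2.4.6 and matplotlib 3.10.9. Positions and windows are RefSeq's on GRCm38, and exons were checked in GENCODE M21.

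Values in every library were given for the 6 largest rises and falls among called members, the 6 highest levels per length and a list of receptors known in T cells. Those of Gpr34, Cysltr2 and Hrh2 were added after they were seen. Up to 4 genes with the smallest p were named from each ligand or transducer list. Ptgs1, Lta4h, Ptges2 and Ptges3 were added after their values were seen. P2ry10 and the Fpr genes have close relatives between which reads may be split. Marker sums were not tested, and the sum without Ccr2 was added after the data were seen. Results of 3 members and 1 list gene are not reported here, and counts over members include them.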

Additional observations from a re-analysis of the deposited data

Results flagged for a closer look

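Of 104 groups of 4 libraries (52 members under each label), 7 had a highest or lowest library whose gap to the nearest other exceeded, as a share of the group's range, the 95% critical value of Dixon's test, and chance alone gives about 1 in 20 groups. Each was a single high library. WT 5 was the high one for Gpr55 (28.0 CPM) and Ptger2 (52.2 CPM). KO 5 was high for Ptger2 (51.2 CPM) and Gpr15 (4.41 CPM). KO 4 was high for Gpr171 (261 CPM), Gpr34 (38.5 CPM) and Gpr137b-ps (11.6 CPM). KO 4 also had the highest myeloid sum, 1626 CPM, and its part in these values was not tested.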

How the results depend on the processing

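Hcar2 was called in every fit that left out 1 library, as were Fpr2, Gpr141, Gpr35, Gpr84 and P2ry6, which had to differ. Leaving out 1 library gave 7 to 12 members called higher (7 without WT 1) and 0 to 2 lower, and 7 to 12 list genes higher (7 without WT 4) and 0 to 3 lower. With genes of at least 5 CPM in 4 libraries, fewer genes were tested, and 6 members and 4 list genes were called higher and 0 members lower (edgeR, 4 at an unadjusted p below 0.05), with Gpr155 at an adjusted p of 0.0575. Members called lower numbered 2 with total library size, DESeq2, limma-voom or without KO 4 and KO 5, and 0 with the library code, which only KO 4 and KO 5 differ in (edgeR, 5 at an unadjusted p below 0.05). That term ended the calls of Gpr155 (adjusted p = 0.102), Gpr34 (0.221) and P2rx4 (0.158). What the code stands for is not stated. Without KO 4 and KO 5, list genes called lower were 2. limma-voom added Adgrf5 (0.83, adjusted p = 0.0484). The cause of these changes was not tested.

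Deviations of same-numbered libraries from their label means correlated at -0.0601, 0.182, -0.138 and 0.256 for hosts 1, 2, 4 and 5 across genes. Differently numbered libraries correlated at -0.265 to 0.198, and not every library correlated best with its own number. Such overlapping values cannot show whether a host number stands for 1 mouse. With the host number as a replicate block, 13 members were called higher and 1 lower, and 7 list genes higher and 2 lower. The block ended the calls of Gpr155 (0.0672) and Gpr34 (0.0934) and added Gpr174 (-0.27, adjusted p = 0.00839), Gpr55 (0.64, 0.0482) and P2ry10 (0.32, 0.0249).

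Sign changes touched 13 of the 52 members described, none of them called and none with a main log2 fold change beyond 0.28 in size. P2rx7 was at -0.0024 with total library size, S1pr4 at 0.0034 with the 5 CPM filter and 0.0017 with the block, and Gpr137b-ps at -0.0376 with limma-voom. With the library code, values were 0.0391 for Adgrl1, 0.0149 for Adora2a, -0.0851 for Adrb1, -0.0656 for Gpr137b-ps, -0.0110 for Gpr180 and -0.0125 for Lpar2, and without KO 4 and KO 5 they were 0.0390, 0.0149, -0.0854, -0.0658, -0.0112 and -0.0127 in that order. Leaving out 1 library gave ranges of -0.188 to 0.0150 for Gpr146, -0.0758 to 0.108 for P2rx7, -0.0355 to 0.0463 for S1pr4, -0.0817 to 0.0583 for Adora2a, -0.0509 to 0.154 for Gpr162, -0.0634 to 0.0890 for Gpr19, -0.0528 to 0.137 for Gpr137b-ps, -0.722 to 0.195 for Ptgir, -0.182 to 0.0116 for Gpr65, -0.0973 to 0.0148 for Adgrl1 and -0.0159 to 0.413 for Adrb1. With 4 libraries a label, changes inside intervals such as that of S1pr1 (-0.51 to 0.15) were not detectable, and Gpr84 and P2ry6 rest on fewer than 20 reads per library labelled wild type.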
